A study of Mus musculus with 6 samples.

Results

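The 47 genes described here are those by which a mouse tissue shows natural killer (NK) cells, cytotoxic granules and the cytokine IL-15 that keeps such cells alive. They were taken by gene symbol from the 56884 genes of the count table: Ncr1 and Eomes, the Klr genes of killer cell lectin-like receptors, the granzymes with Prf1 and Nkg7, and Il15 with Il15ra and Il2rb. The libraries came from 6 ectopic endometriosis lesions, 3 grown from uterine tissue of Dnmt3a f/f donors (WT) and 3 from Dnmt3a f/f:PR Cre/+ donors (KO), one mRNA library per lesion. The female donors were 8 weeks old and had received estradiol, and the tissue was placed in wild-type C57BL/6J females carrying estradiol pellets. Both groups therefore carried the floxed Dnmt3a allele, and only the KO donors carried Cre, driven by the progesterone receptor gene and so active in cells that express that receptor. Leukocytes that entered a lesion from the recipient kept an intact Dnmt3a gene in both groups. The sample labels give collection at 4 weeks after intraperitoneal injection of fragments, whereas the methods describe a sutured fragment collected on day 21.

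Each library held between 45370342 and 57239184 counts. Dnmt3a, the DNA methyltransferase gene targeted in the donors, stood at 52.7, 43.9 and 51.7 CPM (counts scaled by library size) in WT replicates 1, 2 and 3 and at 30.3, 33.5 and 36.2 CPM in KO replicates 1, 2 and 3. All KO lesions were below all WT lesions (log2 fold change −0.57, SE 0.14), with an adjusted p of 0.321 by the quasi-likelihood test of edgeR, adjusted after Benjamini and Hochberg. Endometrial epithelial markers summed to between 11282 and 36125 CPM and stromal markers to between 1204 and 4703 CPM, so both tissue compartments were present in every library. Further features set WT lesions apart from one another. Skeletal muscle markers summed to 26159 CPM in WT replicate 1 and 30877 CPM in WT replicate 3, against 14.1 CPM or less in the other 4 lesions. Neutrophil markers summed to 9706 CPM in WT replicate 2, against 30.3 to 472 CPM in the other 5 lesions.

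NK cells are innate lymphocytes that kill stressed or transformed cells by releasing granules that hold perforin, which opens membranes, and granzymes, proteases that start cell death. Whether an NK cell fires is set by activating receptors such as NKp46 and NKG2D and inhibitory receptors that read MHC class I molecules, and in mice many of these are encoded side by side in the NK gene complex on chromosome 6. IL-15, shown to lymphocytes on its receptor chain IL-15Rα, maintains NK cells and memory CD8 T cells, and uterine NK cells are abundant in the endometrium. Many of these receptors and granule proteins are also made by activated CD8 T cells, so most of the genes do not by themselves tell the 2 cell types apart.

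The genotype removes a DNA methyltransferase only in donor cells that express the progesterone receptor, and not in leukocytes of the recipient. CpG dinucleotides are the sites that this enzyme methylates. Their density is a property of the members' promoters that the choice of members did not use. RefSeq promoters (GRCm38.p6) were matched for 38 members with 46 start sites. The 250 bases upstream of these starts held a median of 2 CpG (quartiles 1 to 3), against 6 (quartiles 2 to 16) over 32851 promoters of 27025 genes. No CpG lay in 15.2% of the members' windows and in 7.87% of all windows. Start sites of a gene can lie close together, as for Ncr1 and Klrb1b, so some windows overlap and were each counted. The STAT motif TTCNNNGAA, a palindrome and so read on both strands at once, was found in 10.9% of the members' windows and 7.02% of all windows, and the T-box core GGTGTG on either strand in 19.6% and 16.3%. The 2 motifs share no overlapping letters. DNA methylation was not measured in these libraries, and these matches describe letters only. The 4 windows below belong to Ncr1, the marker taken for NK cells, and to 3 members that were lower in KO lesions. They are written 5′ to 3′ on the strand of the gene with CpG in capitals, and lie at chr7:4337465-4337714 (plus strand) for Ncr1, with 0 CpG, chr6:129678974-129679223 (minus strand) for Klrc1, with 1, chr6:129623865-129624114 (minus strand) for Klrk1, with 4, and chr14:56262335-56262584 (minus strand) for Gzmb, with 1.
Ncr1: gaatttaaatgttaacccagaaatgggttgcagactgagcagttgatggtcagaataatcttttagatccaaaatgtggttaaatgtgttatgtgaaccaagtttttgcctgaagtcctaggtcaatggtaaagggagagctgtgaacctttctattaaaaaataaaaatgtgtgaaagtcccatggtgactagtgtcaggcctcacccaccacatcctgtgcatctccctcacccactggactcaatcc
Klrc1: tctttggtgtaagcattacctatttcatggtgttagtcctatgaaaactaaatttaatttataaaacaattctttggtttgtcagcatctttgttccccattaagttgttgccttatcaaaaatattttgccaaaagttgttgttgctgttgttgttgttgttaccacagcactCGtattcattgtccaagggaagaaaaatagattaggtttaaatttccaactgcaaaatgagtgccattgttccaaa
Klrk1: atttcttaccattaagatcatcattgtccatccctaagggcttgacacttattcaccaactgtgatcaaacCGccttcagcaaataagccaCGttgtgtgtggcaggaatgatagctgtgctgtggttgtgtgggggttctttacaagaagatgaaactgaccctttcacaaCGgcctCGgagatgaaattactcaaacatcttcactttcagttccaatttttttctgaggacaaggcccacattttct
Gzmb: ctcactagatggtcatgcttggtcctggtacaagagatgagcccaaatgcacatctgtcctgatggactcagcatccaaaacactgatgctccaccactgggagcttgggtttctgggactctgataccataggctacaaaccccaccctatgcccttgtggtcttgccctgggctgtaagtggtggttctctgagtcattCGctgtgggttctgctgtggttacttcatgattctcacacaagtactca

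All 47 members were accounted for. No count was found in any lesion for 9 of them, Gzme, Gzmf, Gzmg, Gzmn, Klrc3 and the pseudogenes Klra11-ps, Klra13-ps, Klra14-ps and Klrb1-ps1. Another 16 had counts too low to test, with between 2 and 130 counts over the 6 lesions, and 22 passed the filter on low counts. Of those 22, 8 were lower in KO lesions at an unadjusted p under 0.05 (36.4%), where 8.16% of all 18177 genes tested were, and none was higher, where 6.55% of all genes were. The 8 were Il15, Il15ra, Il2rb, Gzmb, Nkg7, Klrb1b, Klrc1 and Klrk1, all with a log2 fold change below −1, a criterion met by 5.85% of all genes. No member had an adjusted p under 0.05 in the quasi-likelihood test of edgeR, adjusted after Benjamini and Hochberg over all genes (0.321 to 0.978), a level that 0.0055% of all genes reached on the lower side and 0 genes on the higher side. With DESeq2's Wald test, 4 members had an adjusted p under 0.05, Klrb1b (0.00851), Klrc1 (0.0119), Il15 (0.0234) and Gzmb (0.0275), where 3.9% of all genes were lower at that level, and no member was higher (2.15% of all genes).

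The log2 fold change, KO relative to WT, was below 0 for 19 of the 22 tested members (48.6% of all genes) and had a median of −0.97, against 0.01 over all genes. Every WT lesion was above every KO lesion for 9 members (40.9%; 8.74% of all genes), and the reverse held for none (10.7% of all genes). WT replicate 2 was the highest of the 6 lesions for 17 of the 22, where it was the highest for 24.2% of all genes. The members' summed level was 112 CPM in that lesion, 33.5 and 36.5 CPM in WT replicates 1 and 3, and 20.3 to 24.9 CPM in the KO lesions. Without WT replicate 2 the median over the same 22 members was −0.45, with 15 below 0. Over the 26 members that passed the filter in that fit the median was −0.12, against 0.04 over all genes. Of the 26 members, 6 were lower at an unadjusted p under 0.05, where 9.64% of all genes were, and none was higher (4.21% of all genes). The WT lesions left in that fit, replicates 1 and 3, were those with skeletal muscle transcripts, whose part in these values was not tested. The number lower was 4 of 24 tested without KO replicate 1, where 3.7% of all genes were, and 3 of 26 without KO replicate 2, where 4.22% were. In bulk tissue, fewer cells of a type and less RNA per cell cannot be told apart.

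**Figure D1:**
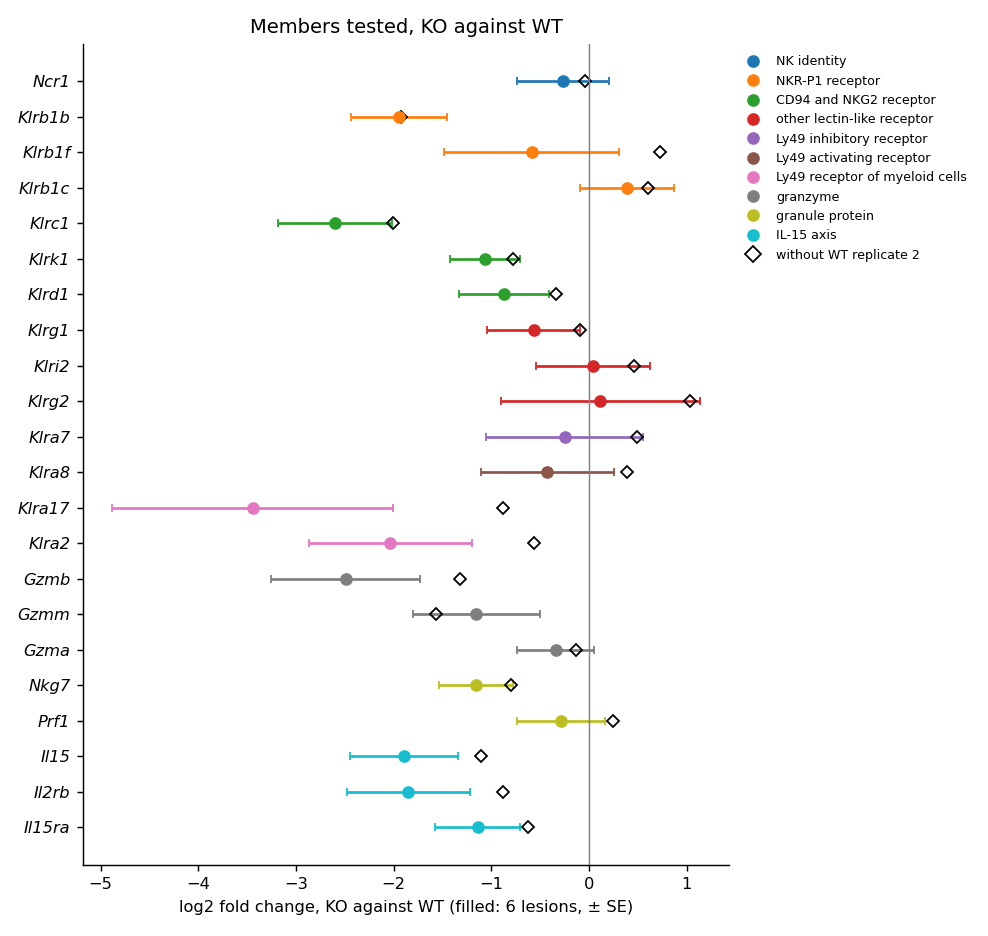
Log2 fold change, KO relative to WT, of each of the 22 tested members (horizontal axis) with all 6 lesions (filled points, bars ± 1 SE) and without WT replicate 2 (open diamonds). The filled points of 19 members lie left of 0, and for Gzmb, Il15, Il2rb, Klra2 and Klra17 the diamond lies much nearer to 0 than the filled point.

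Ncr1, which encodes NKp46, the receptor that best marks NK cells in mice, did not separate the genotypes. Its raw counts (ENSMUSG00000062524.5, chr7:4337724-4345164) were 16, 20 and 12 in the WT lesions and 24, 14 and 8 in the KO lesions, and KO replicate 1 held the most. The level was 0.349 ± 0.0972 CPM in WT and 0.289 ± 0.127 CPM in KO (mean ± SD, n = 3 each). The log2 fold change was −0.27 (SE 0.47), with an adjusted p of 0.797 by the quasi-likelihood test of edgeR, adjusted after Benjamini and Hochberg. A p that misses the threshold does not show that the levels were equal. Eomes, the T-box factor of NK cell maturation, was below the filter with 6, 14 and 6 counts in WT and 24, 8 and 8 in KO lesions. So Ncr1 and Eomes were detected in all 6 lesions, at low levels that overlapped between genotypes.

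Among the cytotoxic granule genes, Gzmb was lower in the KO lesions while Gzma and Prf1 did not pass the test. Gzmb, the granzyme that cleaves caspases (ENSMUSG00000015437.6, chr14:56258838-56262260), stood at 1.58, 5.79 and 0.854 CPM in WT against 0.561, 0.477 and 0.417 CPM in KO lesions. Every WT value was above every KO value, and the WT values themselves spread widely. The WT mean was 5.62 times the KO mean in the fit (log2 fold change −2.49, SE 0.76, unadjusted p = 0.017, adjusted p = 0.325). The change was −1.32 without WT replicate 2 (unadjusted p = 0.0248), and leaving out KO replicate 2 or 3 gave a p of 0.0514 or 0.0575. Gzma, the most abundant granzyme of resting NK cells, stood at 0.939, 2.12 and 1.96 CPM in WT against 1.54, 1.03 and 1.38 CPM in KO, with the lowest value in a WT lesion (log2 fold change −0.34, SE 0.40, adjusted p = 0.682). Within each library the ratio of Gzmb to Gzma counts, which does not depend on library size, was 1.68, 2.73 and 0.435 in WT and 0.364, 0.462 and 0.303 in KO lesions. The ratios overlapped, since WT replicate 3 lay below KO replicate 2.

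Prf1, the gene of perforin, stood at 0.47, 1.08 and 0.449 CPM in WT against 0.491, 0.516 and 0.625 CPM in KO lesions, so only WT replicate 2 was above the KO range (log2 fold change −0.29, SE 0.45). Nkg7, a granule membrane protein needed for degranulation, was lower in KO. Its values were 1.62, 2.97 and 1.62 CPM in WT against 0.947, 0.715 and 1.13 CPM in KO lesions without overlap (log2 fold change −1.15, SE 0.38, unadjusted p = 0.0221, adjusted p = 0.328). Leaving out WT replicate 2, KO replicate 1 or KO replicate 2 gave Nkg7 an unadjusted p of 0.0664, 0.0634 or 0.0676. Gzmm, a granzyme of innate lymphocytes, stood at 1.45, 0.45 and 2.14 CPM in WT against 0.93, 0.377 and 0.50 CPM in KO (log2 fold change −1.15, SE 0.65, unadjusted p = 0.128). Unlike most members it was high in WT replicates 1 and 3, the lesions with skeletal muscle transcripts, and without WT replicate 2 its change was −1.57 (unadjusted p = 0.0254). The part of the muscle-bearing lesions in the Gzmm value was not tested. Of the remaining granzymes, Gzmk, Gzmc and Gzmd had at most 20 counts in any lesion, and Gzmc was highest in KO replicates 1 and 2 with 20 and 16 counts against 2, 5 and 6 in WT.

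**Figure D2:**
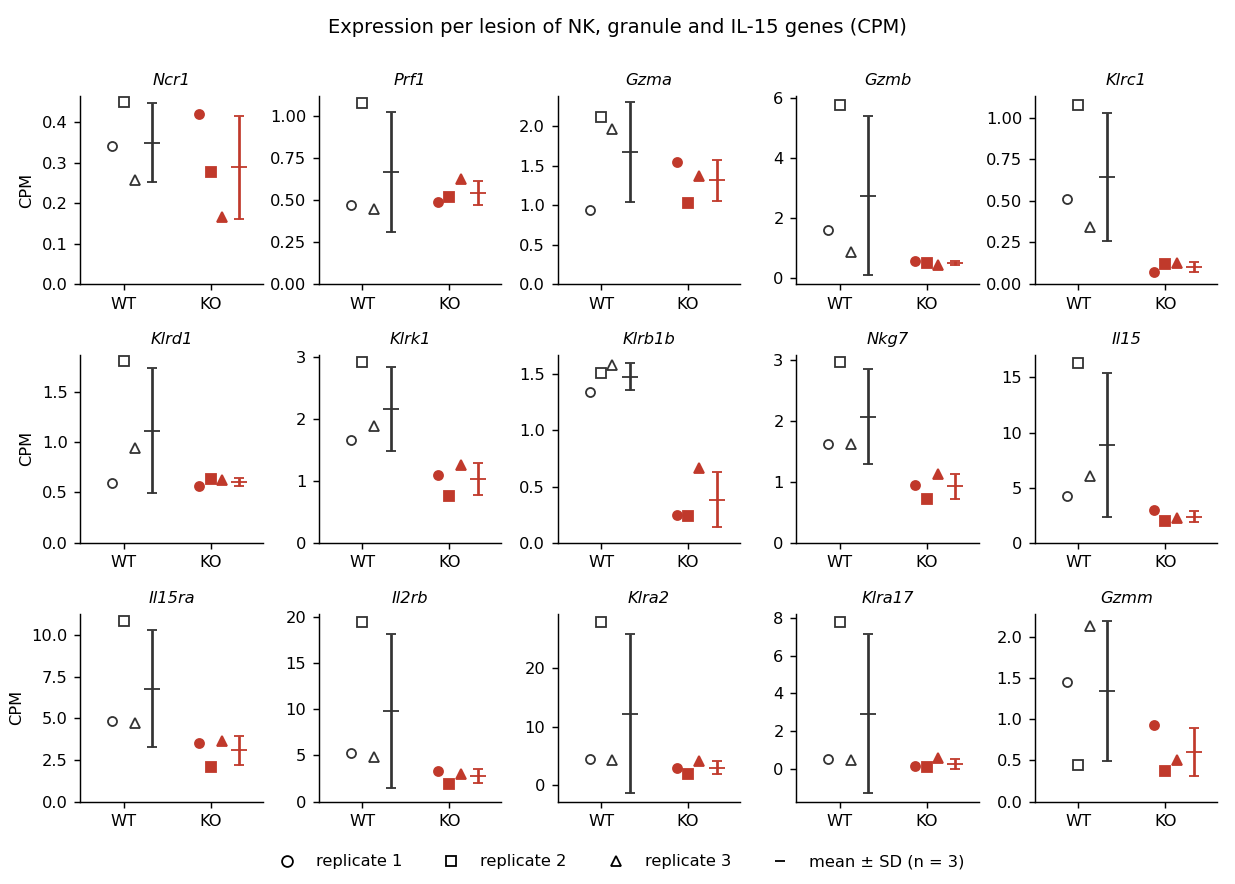
Level in each lesion, in CPM on a linear axis with its own range in each panel, of the members the results turn on; open dark symbols are WT and filled red symbols are KO, with a circle, square and triangle for replicates 1, 2 and 3 and bars for mean ± SD (n = 3). The square of WT replicate 2 is the highest symbol for Gzmb, Il15 and Klra2, while the WT and KO symbols overlap for Ncr1.

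CD94 pairs with chains such as NKG2A to read the class Ib molecule Qa-1. NKG2D, placed in the same group here, does not pair with CD94 and reads stress ligands. Klrc1, the gene of the inhibitory chain NKG2A (ENSMUSG00000030167.16, chr6:129666015-129678973), had 24, 48 and 16 counts in WT and 4, 6 and 6 in KO lesions. The corresponding levels were 0.512, 1.08 and 0.342 CPM and 0.0702, 0.119 and 0.125 CPM, with no overlap. The fitted WT level was 6.06 times the KO level (log2 fold change −2.60, SE 0.58, unadjusted p = 0.00422, adjusted p = 0.321), and the unadjusted p stayed under 0.05 in all 12 alternatives that tested it (−2.92 to −2.01). Of the 50-base words of Klrc1 transcripts, 36.6% also occur in Klrc2, the activating NKG2C gene, so reads may have been split between them. Klrc2 was below the filter with 4, 10 and 4 counts in WT and 0, 0 and 6 in KO.

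Klrd1, the gene of CD94, the chain with which NKG2A pairs, stood at 0.598, 1.80 and 0.94 CPM in WT against 0.561, 0.636 and 0.625 CPM in KO lesions. WT replicate 1 lay within the KO range (log2 fold change −0.87, SE 0.46, unadjusted p = 0.109), and the unadjusted p was 0.0405 without that lesion. The ratio of Klrc1 to Klrd1 counts within a library was 0.857, 0.600 and 0.364 in WT and 0.125, 0.188 and 0.200 in KO lesions. This ratio did not overlap between genotypes and was not highest in WT replicate 2.

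Klrk1, which encodes NKG2D, the activating receptor for stress-induced ligands (ENSMUSG00000030149.16, chr6:129610323-129623864), stood at 1.67, 2.93 and 1.88 CPM in WT against 1.09, 0.755 and 1.25 CPM in KO. The groups did not overlap (log2 fold change −1.06, SE 0.36, unadjusted p = 0.0254, adjusted p = 0.328). For Klrk1 the unadjusted p rose to 0.0796, 0.0646 and 0.0725 when WT replicate 2, KO replicate 1 and KO replicate 2 were left out in turn. Hcst, the gene of the DAP10 adaptor through which NKG2D signals, stood at 1.92, 7.29 and 1.45 CPM in WT against 1.19, 0.834 and 1.75 CPM in KO (log2 fold change −1.50, SE 0.70, unadjusted p = 0.0778), and its change was −0.42 without WT replicate 2.

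Of the NKG2D ligands, 1 passed the test. H60c, the gene of a ligand best known from skin, stood at 50.5, 32.9 and 10.7 CPM in KO lesions against 3.12, 2.97 and 4.57 CPM in WT. Every KO lesion was above every WT lesion, and the KO values ranged widely (31.4 ± 19.9 CPM against 3.55 ± 0.884 CPM, mean ± SD, n = 3 each). The log2 fold change was 3.14 (SE 0.59), with an unadjusted p of 0.00177 and an adjusted p of 0.321 by the quasi-likelihood test of edgeR, adjusted after Benjamini and Hochberg. It stayed between 2.61 and 3.55, with an unadjusted p under 0.05, in all 14 alternatives, and DESeq2's Wald test gave an adjusted p of 1.31e-05. Raet1e, another NKG2D ligand, stood at 1.43, 2.97 and 1.39 CPM in WT against 3.21, 3.52 and 3.15 CPM in KO lesions, without overlap (log2 fold change 0.77, SE 0.37, unadjusted p = 0.0838). Ulbp1 and Raet1d had log2 fold changes of 0.18 and −0.35 and did not pass the test. Over the 18 tested ligands of NK receptors, 3 were lower and 1 was higher at an unadjusted p under 0.05, where 8.16% of all genes were lower and 6.55% higher. The counts were 1 lower and 2 higher without WT replicate 2, where 9.64% of all genes were lower and 4.21% higher. Under upper quartile scaling they were 0 lower and 1 higher. The 3 were the MHC class I genes H2-K1 (−0.86) and H2-T23 (−0.84), the latter encoding Qa-1, and Clec2g (−2.99), a ligand of NKR-P1 receptors. The unadjusted p stayed under 0.05 in 8 of 14 alternatives for H2-K1 (−1.17 to −0.60), 9 of 14 for H2-T23 (−1.06 to −0.40) and 5 of 12 for Clec2g (−4.03 to −1.22). Without WT replicate 2, H2-K1 had an unadjusted p of 0.102 and H2-T23 a log2 fold change of −0.40. Leaving out KO replicate 1 or 2 took both of them over 0.05, as did leaving out WT replicate 1 for H2-K1 and KO replicate 3 for H2-T23.

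**Figure D3:**
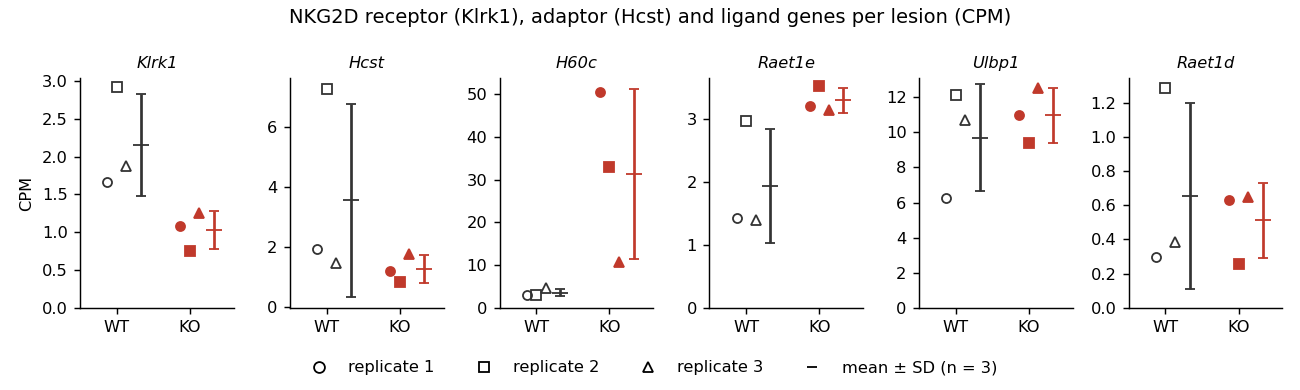
Level in each lesion, in CPM on a linear axis with its own range in each panel, of the NKG2D receptor gene, its adaptor and its ligands; open dark symbols are WT and filled red symbols are KO, with a circle, square and triangle for replicates 1, 2 and 3 and bars for mean ± SD (n = 3). Klrk1 lies lower in all KO lesions, whereas H60c runs from 10.7 to 50.5 CPM in KO and from 2.97 to 4.57 CPM in WT.

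The NKR-P1 receptors, lectin-like molecules that bind Clec2 proteins, did not move as a block. Klrb1b, the inhibitory member NKR-P1B (ENSMUSG00000079298.10, chr6:128813706-128826331), had 63, 67 and 74 counts in WT and 14, 12 and 32 in KO lesions. At 1.35, 1.51 and 1.58 CPM against 0.246, 0.238 and 0.667 CPM, the WT lesions were close to one another and all above KO (1.48 ± 0.121 against 0.384 ± 0.245 CPM, mean ± SD, n = 3 each). The log2 fold change was −1.94 (SE 0.49, unadjusted p = 0.00748, adjusted p = 0.321). It was −1.93 without WT replicate 2, and in all 14 alternatives the unadjusted p stayed under 0.05 (−2.60 to −1.69). The annotated neighbour Gm44511 shares 25.5% of the 50-base words of Klrb1b, so the 2 genes may have shared reads. Klrb1c, the activating receptor NK1.1 by which NK cells are often sorted in C57BL/6 mice, stood at 0.512, 0.54 and 0.214 CPM in WT against 0.561, 0.715 and 0.375 CPM in KO (log2 fold change 0.38, SE 0.48, unadjusted p = 0.456). Like Ncr1, it overlapped between genotypes. Klrb1f, another activating form, stood at 0.213, 2.05 and 0.534 CPM in WT against 0.579, 0.278 and 1.00 CPM in KO (log2 fold change −0.59, SE 0.90), and its change was 0.72 without WT replicate 2. Klrb1a was not tested, with 92 of its 130 counts in KO replicate 2.

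The Ly49 receptors, which read classical MHC class I and are encoded by the Klra genes, were mostly too low to test. Klra7, the inhibitory Ly49G, had 4, 26 and 14 counts in WT and 12, 24 and 6 in KO lesions. Klra8, the activating Ly49H that recognises a cytomegalovirus protein, had 10, 22 and 4 counts in WT and 8, 10 and 12 in KO. Their log2 fold changes of −0.25 (SE 0.80) and −0.43 (SE 0.68) turned to 0.49 and 0.38 without WT replicate 2. Klra8 shares 33.1% and Klra7 12.3% of its 50-base words with other genes. The other 7 Ly49 genes of lymphocytes had at most 18 counts in any lesion.

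Klra2 and Klra17, the Ly49 genes known from myeloid cells, held more counts over the 6 lesions than any other Ly49 gene, most of them in a single lesion. Klra2 (chr6:131219223-131247362) stood at 4.48, 27.8 and 4.31 CPM in WT against 2.91, 1.93 and 4.11 CPM in KO lesions, and Klra17 at 0.512, 7.79 and 0.47 CPM against 0.14, 0.0795 and 0.583 CPM. WT replicate 2 was several times above every other lesion for both. The log2 fold change of Klra2 was −2.03 (SE 0.84, unadjusted p = 0.0513) and −0.56 without WT replicate 2 (unadjusted p = 0.201). That of Klra17 was −3.45 (SE 1.43, unadjusted p = 0.053) and −0.88 without it (unadjusted p = 0.368). Neutrophil markers were highest in the same lesion (9706 CPM), as were macrophage markers, at 2649 CPM against 532 to 1349 CPM in the other 5 lesions; their part in the result was not tested.

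Of the remaining lectin-like receptors, Klrg1, a marker of terminally differentiated lymphocytes, stood at 0.726, 1.44 and 0.598 CPM in WT against 0.754, 0.397 and 0.708 CPM in KO (log2 fold change −0.57, SE 0.47). Klrg2 and Klri2 had log2 fold changes of 0.12 (SE 1.02) and 0.04 (SE 0.58). All 3 overlapped between genotypes.

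**Figure D4:**
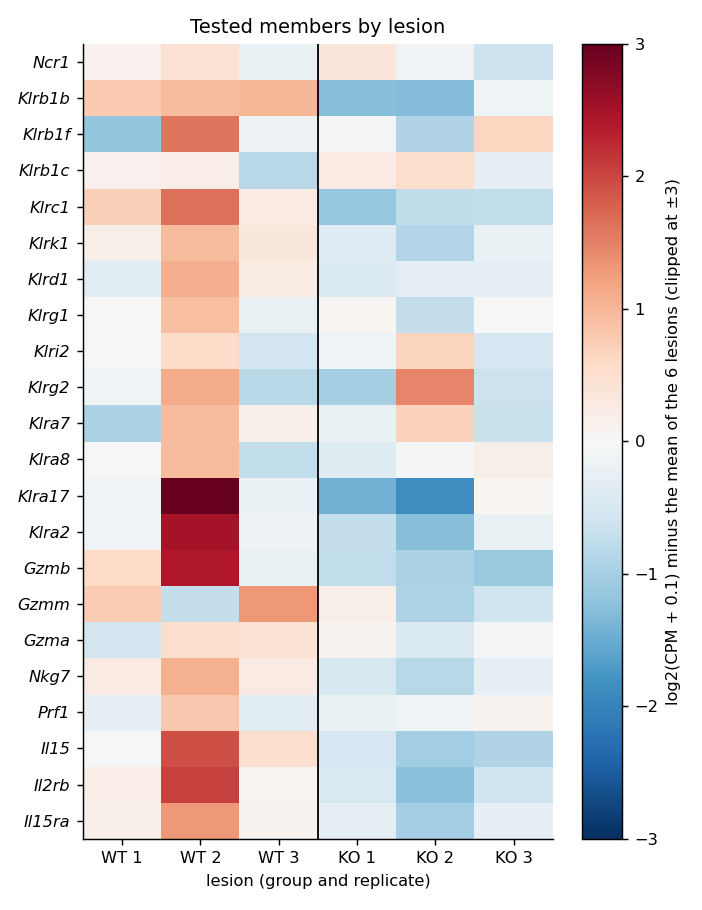
Level of each tested member in each lesion (columns) as log2(CPM + 0.1) minus the mean of that gene over the 6 lesions, clipped at 3 in either direction. WT replicate 2 is the column with the most high values, and the value of Klra17 in it is clipped.

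The IL-15 axis was the one role of which every gene was lower in KO lesions at an unadjusted p under 0.05, where 8.16% of all genes were. Under upper quartile scaling in edgeR 2 of the 3 were, with an unadjusted p of 0.0512 for Il15ra. Il15, the cytokine itself (ENSMUSG00000031712.11, chr8:82331632-82403222), stood at 4.23, 16.3 and 6.02 CPM in WT against 2.95, 1.99 and 2.21 CPM in KO. All WT lesions were above all KO lesions, and the fitted WT level was 3.72 times the KO level (log2 fold change −1.89, SE 0.55, unadjusted p = 0.0141, adjusted p = 0.321). Without WT replicate 2 the change was −1.10 (unadjusted p = 0.0173), and its unadjusted p stayed under 0.05 when any 1 lesion was left out. The WT lesions in the fit without WT replicate 2 were those with skeletal muscle transcripts, whose part in the Il15 value was not tested. Il15ra, which presents IL-15 to neighbouring cells (chr2:11705290-11734317), stood at 4.83, 10.8 and 4.70 CPM in WT against 3.51, 2.09 and 3.65 CPM in KO (log2 fold change −1.14, SE 0.44, unadjusted p = 0.0397, adjusted p = 0.332). Its unadjusted p was 0.117 without WT replicate 2, and leaving out each KO lesion in turn gave 0.0760, 0.109 and 0.0619. Il2rb, the signalling chain shared by the IL-2 and IL-15 receptors (chr15:78479256-78495271), stood at 5.29, 19.5 and 4.78 CPM in WT against 3.32, 1.87 and 3.00 CPM in KO (log2 fold change −1.85, SE 0.63, unadjusted p = 0.0261, adjusted p = 0.328). Its change was −0.88 without WT replicate 2 (unadjusted p = 0.0442), and its unadjusted p was 0.0563, 0.0806 and 0.0638 without KO replicates 1, 2 and 3.

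An exact two-sided permutation test of 3 against 3 lesions cannot give a p below 0.1. It gave 0.1 for Il15 and for the other 8 tested members whose groups did not overlap, and 0.5 for Ncr1. Klra1, an Ly49 gene below the filter, did not overlap either, with 8, 4 and 12 counts in WT and 2, 2 and 0 in KO lesions. Per kilobase of exon, the mean levels of the 22 tested members in WT lesions ran from 6.44 CPM per kilobase for Klra2, a mean carried by WT replicate 2, to 0.0915 for Klri2. Il15 stood at 3.92, Klra17 at 2.45, Il2rb at 2.30, Nkg7 at 2.27, Gzmb at 1.91 and Gzma at 1.66 CPM per kilobase. The mean of Klra17 was also carried by WT replicate 2 (7.79 CPM against 0.512 and 0.47 CPM in WT replicates 1 and 3). Those of Il15, Il2rb and Gzmb were raised by the same lesion, so the order depends on it. Klrc1 stood at 0.325, Klrk1 at 0.300, Prf1 at 0.258 and Ncr1 at 0.227 CPM per kilobase.

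Genes that act with the members were counted in further lists, read against the 8.16% of all genes that were lower. Among IL-15 signalling partners, 7 of 16 tested were lower and 1 was higher at an unadjusted p under 0.05. This list also holds the members Il15, Il15ra and Il2rb, which are among the 7, so it is partly the same genes. Il12b, a subunit of the NK-activating cytokines IL-12 and IL-23, stood at 0.897, 1.17 and 1.05 CPM in WT against 0.175, 0.238 and 0.292 CPM in KO lesions, with close replicates in both groups (log2 fold change −2.13, unadjusted p = 0.000784). Il12a, the other IL-12 subunit, had 50, 70 and 32 counts in WT and 4, 0 and 0 in KO. The gene that was higher was Stat5a, a transcription factor downstream of IL-15, at 95.0, 60.3 and 69.5 CPM in WT against 172, 161 and 78.3 CPM in KO, where KO replicate 3 lay within the WT range (log2 fold change 0.87, unadjusted p = 0.0431). Its unadjusted p was over 0.05 without WT replicate 2 or 3 or KO replicate 1 or 2, the highest being 0.131.

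Of 20 tested NK-cell and granule genes outside the members, 5 were lower and none higher. The chemokine gene Ccl5 stood at 8.52, 15.4 and 8.80 CPM in WT against 2.88, 1.07 and 3.75 CPM in KO (log2 fold change −2.09, unadjusted p = 0.00699). Of 16 tested receptor adaptors and signalling genes 4 were lower, among them Sh2d1a (−2.71), the SLAM adaptor SAP, and of 8 tested nectin-family and SLAM receptors 5 were lower, among them Cd2 (−2.35), an adhesion receptor of T and NK cells. None in either list was higher. Without WT replicate 2, 9.64% of all genes were lower at an unadjusted p under 0.05. In that fit 3 of the NK-cell and granule genes and 1 of the adaptors were lower. So were 5 of the IL-15 partners and 3 of the nectin-family and SLAM receptors. The number of genes tested in each list in that fit is not given here, so these counts are not read as an excess.

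Markers of several leukocyte types were lower together with the members. All 9 T cell markers were below 0 in log2 fold change, 8 of them at an unadjusted p under 0.05 and 3 without WT replicate 2, and none was at 0 counts in any lesion. Their summed level was 36.6, 99.7 and 37.6 CPM in WT against 9.40, 6.59 and 26.7 CPM in KO lesions. Cd8a, the coreceptor of cytotoxic T cells, stood at 1.94, 2.00 and 1.07 CPM in WT against 0.561, 0.278 and 0.583 CPM in KO. All 5 B cell markers were below 0 (median log2 fold change −3.47, and −1.80 without WT replicate 2), 4 of them at an unadjusted p under 0.05 and 2 without WT replicate 2. All 6 neutrophil markers were below 0 with 3 lower at that level, and all 7 macrophage markers were below 0 with 0 lower. Without WT replicate 2 neither list had a marker lower at that level. B cell markers summed to 14.9, 77.3 and 9.21 CPM in WT against 9.81, 7.27 and 8.63 CPM in KO, and mast cell markers to 70.3, 569 and 54.2 CPM against 37.3, 168 and 64.2 CPM, with Ms4a2 at 0 in at least 1 lesion. Of 7 tested mast cell markers, 4 were below 0 and 2 were lower at an unadjusted p under 0.05, 1 without WT replicate 2. Summed dendritic cell markers overlapped, at 36.0 to 51.7 CPM in WT and 34.7 to 51.4 CPM in KO. Of 5 tested dendritic cell markers, 4 were below 0 and 1 was lower at that level, 0 without WT replicate 2. Ncr1, the marker taken for NK cells, overlapped between genotypes as given above. Gzmb, Nkg7, Klrb1b, Klrc1, Klrk1 and the IL-15 axis were lower in KO lesions. What part these marker levels, WT replicate 2 and the skeletal muscle transcripts of WT replicates 1 and 3 had in this was not tested.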

How the data were processed

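Total RNA from 6 lesions was made into TruSeq Stranded mRNA libraries. The authors deposited whole-number read counts per gene, with no normalization. The methods name mapping to GRCm38, whereas the submitters' processing notes name GRCm39 with Trimmomatic, featureCounts and DESeq2, without versions or a strand setting. Symbols matched 51948 of 56884 gene identifiers. Coordinates and exon lengths are from GENCODE M21 (GRCm38), and 0 of 47 members carry the identifier version of that release, so they may differ from the counted models. Between 87.2 and 88.6% of counts from 1 to 100 were even, so a read pair may have counted as 2 and low counts hold fewer independent fragments than their size.

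Counts were fitted with edgeR 4.0.16 in R 4.3.3 (filterByExpr, TMM, quasi-likelihood test, genotype only, Benjamini-Hochberg over 18177 genes). SE is the log2 fold change divided by the root of F. CPM used TMM-scaled library sizes. The fits were also run on simulated counts, with the outcome not given here. Calls used an unadjusted p under 0.05, beside adjusted values. Alternatives used DESeq2 1.42.0, limma 3.58.1, other scaling and filters, a replicate block, each lesion left out and, added after seeing the data, counts halved. Every tested member is named. The other lists are shown by examples that were not all picked by lowest p. Hcst, Raet1e, Ulbp1 and Raet1d were over 0.05, and Cd8a (unadjusted p = 0.00635) was given although Cd8b1 had a lower value (0.00224), both by the quasi-likelihood test of edgeR. The members and lists were chosen with earlier results of these data known. P-values measure the spread between 3 lesions per group.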

Additional observations from a re-analysis of the deposited data

How the results depend on the processing

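The count of members lower at an unadjusted p under 0.05 was 8 of 22 tested. It was between 7 and 11 under DESeq2 size factors, upper quartile scaling, no filter on low counts, at least 10 counts in every library, DESeq2's Wald test, limma voom with quality weights and counts halved. The number tested then ran from 15 with at least 10 counts in every library (7 lower) to 38 without the filter (11 lower). With a replicate block 3 of 22 were lower. Leaving out 1 lesion gave from 3 of 26 (without KO replicate 2) to 12 of 29 (without WT replicate 1) lower. From 0 to 2 were higher (Klrb1a without KO replicate 1, Klra9 and Gzmc without KO replicate 3). The median log2 fold change ran from −1.01 without WT replicate 1 to −0.12 without WT replicate 2. The share over all genes was not taken for most of these settings, so these counts are not read as an excess. Klrb1b and Klrc1 kept an unadjusted p under 0.05 wherever they were tested. With the replicate block, the unadjusted p was 0.0502 for Il15, 0.125 for Il15ra, 0.101 for Il2rb, 0.0828 for Klrk1 and 0.0762 for Nkg7, and Klrg2 turned to −0.17. Lesions that share a replicate number did not deviate together (correlations 0.03, −0.15 and −0.20), so the number was not read as a pairing. Under voom the log2 fold change turned to 0.50 for Klra7, 0.23 for Klra8, 0.18 for Klrb1f, 0.11 for Ncr1 and 0.070 for Prf1, and the unadjusted p of Gzmb was 0.0573. With 1 lesion left out, the values that changed sign ranged from −0.92 to 0.49 for Klra7, −0.87 to 0.38 for Klra8, −1.11 to 0.72 for Klrb1f, −1.46 to 1.03 for Klrg2, −0.49 to 0.46 for Klri2, −0.65 to 0.0061 for Ncr1 and −0.53 to 0.24 for Prf1. The cause was not tested. Counts were too low to test 25 of the 47 members.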
